A study of Mus musculus with 31 samples.

Results

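The genes described here are 10 genes of the kynurenine pathway and of NAD synthesis: Ido1, Afmid, Kmo, Kynu, Haao, Acmsd, Qprt, Nampt, Naprt1 and Nadsyn1. They were chosen by symbol, as 10 of the 23509 genes in the count tables, and each symbol was present. Of the 10, 9 were among the 15185 genes with enough reads to be tested, and Ido1 was not. Kidney mRNA was sequenced from 31 mice of the CD1 stock, all harvested at 30 weeks of age. The 12 mice of the Pcy PBS group were Pcy/CD1 mice injected subcutaneously with phosphate-buffered saline. The 14 mice of the Pcy RGLS4326 group were Pcy/CD1 mice injected subcutaneously each month with RGLS4326, an oligonucleotide that inhibits the microRNA miR-17, at 25 mg kg−1 from 5 to 30 weeks of age. The 5 wild-type mice were untreated males of the CD1 strain. Pcy mice develop slowly progressing kidney cysts from a recessive mutation present in every cell. CD1 is an outbred stock, so the wild-type mice differ from the Pcy mice in the mutation, in injections and in their source of animals, and these cannot be told apart. The labels give weekly PBS and monthly RGLS4326, although the protocol text reads as monthly for both, so the drug cannot be told apart from a difference in the number of injections.

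NAD, the coenzyme of cellular redox reactions, is made from tryptophan by the de novo route, from nicotinate, or from nicotinamide by salvage. In the de novo route tryptophan is opened to kynurenine and carried stepwise to quinolinate, which then becomes a NAD precursor. The proximal tubule, the first segment of the nephron after the glomerulus, is one of the few sites outside the liver that expresses most of this route.

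miR-17-5p, the target of RGLS4326, is shown to say whether the members carry the sequence it recognises. Its mature sequence, from RefSeq, lies at chr14:115043684-115043706 on the plus strand of GRCm38.p6. It is written 5′ to 3′ with the seed (bases 2 to 8) in capitals.
mmu-miR-17-5p: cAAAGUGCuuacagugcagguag
The complement of the seed, GCACTTT, was absent from the longest annotated 3′ untranslated region of each of the 10 members, which ranged from 42 bases in Naprt1 to 2816 bases in Nampt. Among 14441 tested genes with a 3′ untranslated region, 2006 (13.9%) held it. No match says only that these letters are not in these regions.

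The promoters of Haao and Nampt are shown, Nampt because it had the only call under treatment and Haao as another member whose promoter held a nuclear receptor half-site. The number of members with this motif is not reported here. Each is the 250 bases before the RefSeq start, 5′ to 3′ on the gene's strand, with a nuclear receptor half-site in capitals (AGGTCA, or TGACCT where it lies on the other strand). On GRCm38.p6 they lie at chr17:83846791-83847040 (minus strand) for Haao and chr12:32820085-32820334 (plus strand) for Nampt. Both lie inside the genes as placed by GENCODE, whose starts are farther upstream (83847963 for Haao and 32819545 for Nampt).
Haao: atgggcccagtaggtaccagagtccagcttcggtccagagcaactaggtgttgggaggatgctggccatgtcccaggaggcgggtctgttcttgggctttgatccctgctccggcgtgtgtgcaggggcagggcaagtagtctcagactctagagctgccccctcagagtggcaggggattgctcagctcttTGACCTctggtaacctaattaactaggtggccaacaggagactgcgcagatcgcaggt
Nampt: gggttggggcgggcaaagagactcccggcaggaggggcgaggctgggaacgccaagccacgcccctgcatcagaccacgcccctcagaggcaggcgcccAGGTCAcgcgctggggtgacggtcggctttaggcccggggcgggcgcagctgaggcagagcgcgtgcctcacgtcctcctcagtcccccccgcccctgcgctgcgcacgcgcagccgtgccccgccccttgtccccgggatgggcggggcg
The half-site, read on both strands of the 300 bases around each start, occurs in 16.3% of 32851 promoters. The HNF1 motif TTAATNATT (1.47% of promoters), the HNF4 motif CAAAGTCCA (0.475%) and the E-box CACGTG (7.15%) had no match in either. Over the same 300 bases, which include 50 after the start that are not printed, Nampt held 36 CpG dinucleotides at 76.3% GC and Haao held 10 at 58.7%, against a median of 7 and 52.7% over all promoters. These matches describe sequence only.

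Reads counted on genes totalled 14892524 to 27459962 per mouse. The kidney label held against its markers, since the 15 proximal tubule markers summed to 9465 to 37250 CPM in every mouse. CPM is a mouse's count of reads on a gene relative to its total over genes, after scaling with edgeR's TMM factors. RGLS4326-treated mouse 9 stood apart from its group. Its level of Lcn2, which encodes the injury marker Ngal, was 2.76 CPM against 126 to 607 CPM in the other 13, and its members lay at 80.5% to 93.4% of the wild-type mean. Its 8 hepatocyte markers summed to 514 CPM, against at most 278 CPM in the wild-type and 84.8 CPM in the PBS-treated mice. Most results that rest on it are given with and without it. Wild-type mice 3 and 4 were the closest pair of libraries (chi-square of 2.84 per gene) but differed by more than counting noise and were kept as separate mice.

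Pcy kidneys had less mRNA of most tested members, which belong to several routes to NAD. In PBS-treated mice, 8 of the 9 tested members fell relative to wild type at an adjusted p under 0.05 (quasi-likelihood F-test of edgeR, p adjusted after Benjamini and Hochberg), against 36.6% of all tested genes that fell. With an absolute log2 fold change over 0.5 as well, 6 of 9 fell, against 17.8% of all genes. The median log2 fold change was −0.86 over the 9 members and 0.01 over all genes tested. The falls were steepest for Acmsd, Kmo and Afmid, at 33.0%, 38.8% and 43.8% of the wild-type mean, and shallowest for Naprt1, at 87.2%. Kynu, the member with the fewest reads among those tested, did not pass the test. In these whole kidneys fewer cells of a type and less RNA per cell cannot be told apart.

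**Figure D1:**
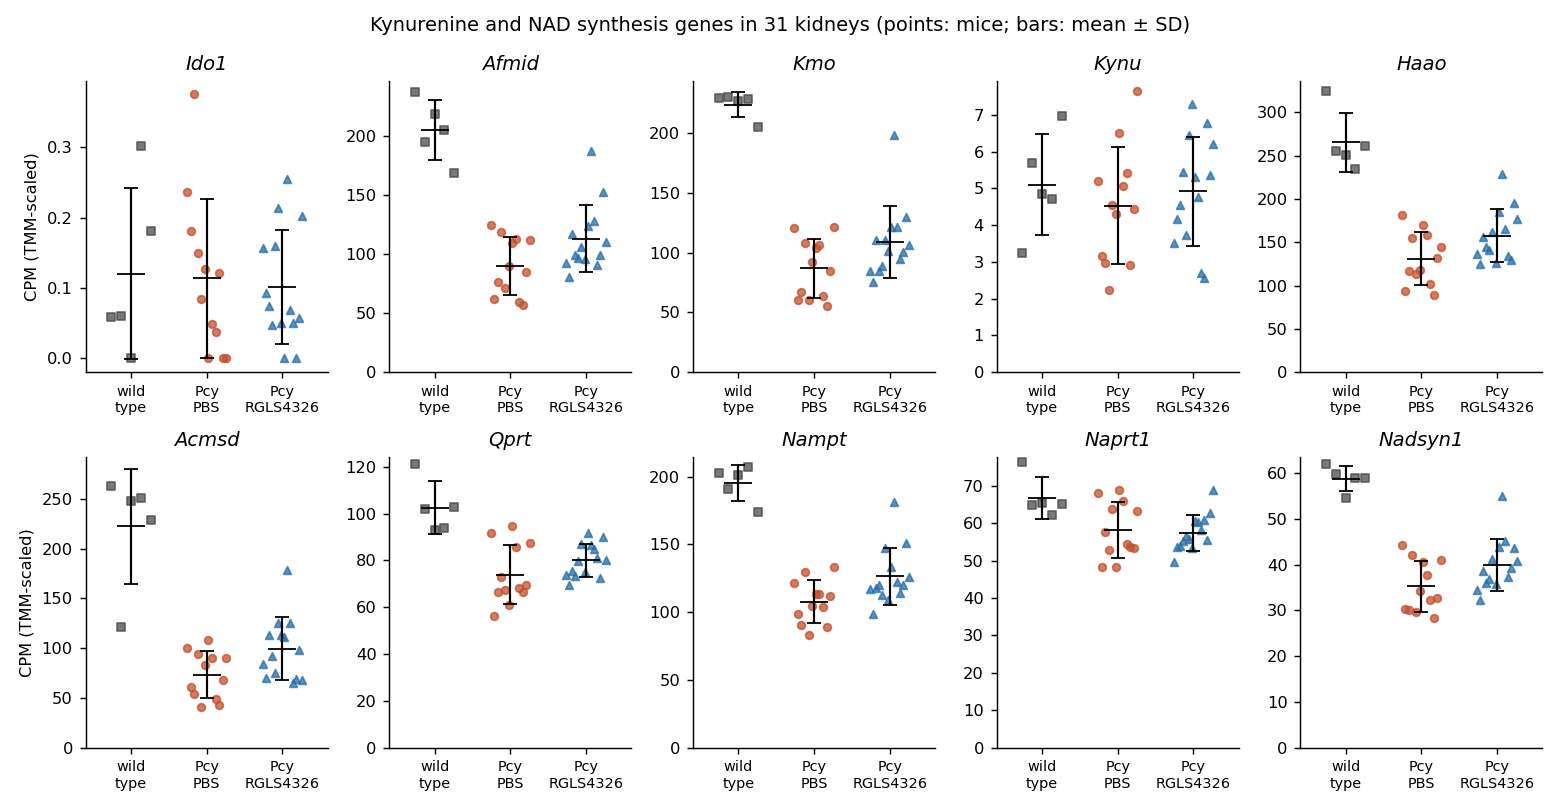
TMM-scaled CPM of the 10 members, 1 panel per gene with its own linear axis, in 5 wild-type (squares), 12 PBS-treated (circles) and 14 RGLS4326-treated (triangles) mice, with mean ± SD bars. The wild-type points sit above every PBS-treated point for Afmid, Kmo, Haao, Acmsd, Nampt and Nadsyn1, and the groups overlap for the other 4.

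Ido1, on the minus strand at chr8:24584136-24597009 of GRCm38, encodes an interferon-inducible enzyme that opens the tryptophan ring. It was near 0 in every kidney, at 0 to 8 reads per mouse. Wild-type mice averaged 0.120 ± 0.121 CPM (SD, n = 5), PBS-treated mice 0.114 ± 0.113 CPM (SD, n = 12) and RGLS4326-treated mice 0.102 ± 0.0811 CPM (SD, n = 14), and 1, 3 and 2 mice had no read. With so few reads Ido1 was not tested, so no difference between groups was assessed. Afmid (plus strand, chr11:117825924-117839908) encodes arylformamidase, which frees kynurenine from its formyl form. It read 238, 195, 219, 205 and 169 CPM in wild-type mice 1 to 5. The PBS-treated mice ranged from 57.1 to 124 CPM (median 87.7) and the RGLS4326-treated mice from 80.3 to 188 CPM (median 103). All PBS-treated mice lay below all wild-type mice, and among the RGLS4326-treated mice mouse 9 alone reached the wild-type range. The log2 fold change in PBS-treated mice was −1.19 (SE 0.17, adjusted p = 3.8e-07). Exons of Afmid share 1566 bases (44.3%) with Gm20708 on the same strand, which had no row in the count tables, so its value is uncertain to that extent.

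Kmo (plus strand, chr1:175620381-175662116) encodes kynurenine monooxygenase, which hydroxylates kynurenine on the way to quinolinate. It read 229.5, 229.7, 226.5, 228 and 205 CPM in wild-type mice 1 to 5. The PBS-treated mice ranged from 55.1 to 121 CPM (median 88.1) and the RGLS4326-treated mice from 75.01 to 198 CPM (median 104). Neither Pcy group overlapped the wild-type mice, and the highest treated value after that of mouse 9 was 129 CPM. The log2 fold change was −1.37 in PBS-treated mice (SE 0.17, adjusted p = 7.7e-08). Kynu (plus strand, chr2:43555329-43682715) encodes kynureninase, which cleaves the product of Kmo. It was low and broadly spread, and averaged 5.10 ± 1.38 CPM (SD, n = 5) in the wild-type mice, 4.53 ± 1.58 CPM (SD, n = 12) after PBS and 4.92 ± 1.48 CPM (SD, n = 14) after RGLS4326. The 3 groups overlapped over most of their range, and the log2 fold change in PBS-treated mice was −0.17 (SE 0.24, adjusted p = 0.526), with a 95% interval from −0.64 to 0.30.

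Haao and Acmsd act one after the other at the branch of the route. Haao (minus strand, chr17:83831156-83847963) makes aminocarboxymuconate semialdehyde, which closes by itself to quinolinate. Acmsd (plus strand, chr1:127729413-127767978) removes that semialdehyde and so draws it away from NAD. Haao read 325, 255, 251, 235 and 262 CPM in wild-type mice 1 to 5, 89.5 to 182 CPM (median 125) with PBS and 125 to 229 CPM (median 151) with RGLS4326. Neither Pcy group overlapped wild type, and the log2 fold change with PBS was −1.02 (SE 0.14, adjusted p = 2.6e-07). Acmsd read 263, 121, 248, 251 and 229 CPM in wild-type mice 1 to 5, with mouse 2 far below the other 4. The PBS-treated mice ranged from 41.1 to 108 CPM (median 75.5) and the RGLS4326-treated mice from 65.1 to 179 CPM (median 95.3). The PBS-treated mice were all below wild type, whereas the treated mice overlapped it through wild-type mouse 2. Acmsd had the largest log2 fold change of the 9, at −1.60 (SE 0.22, adjusted p = 2.1e-07). It shares 94 bases (3.32%) with an antisense gene, 2900009J06Rik.

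Qprt (minus strand, chr7:127107114-127122226) encodes quinolinate phosphoribosyltransferase, which turns quinolinate into nicotinate mononucleotide. It read 121, 102, 92.8, 93.8 and 103 CPM in wild-type mice 1 to 5, 56.2 to 94.5 CPM (median 68.9) with PBS and 69.4 to 91.8 CPM (median 79.9) with RGLS4326. It fell by 0.47 on the log2 scale with PBS (SE 0.09, adjusted p = 4.4e-05). A single PBS-treated mouse, at 94.5 CPM, overlapped wild type, and no RGLS4326-treated mouse did.

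Nampt, Naprt1 and Nadsyn1 belong to the routes that do not start from tryptophan or that close them. Nampt (plus strand, chr12:32819545-32853349) is the rate-limiting enzyme of nicotinamide salvage. It read 203, 191, 201, 207 and 174 CPM in wild-type mice 1 to 5, 82.9 to 133 CPM (median 108) with PBS and 98.3 to 181 CPM (median 120.1) with RGLS4326. The PBS-treated mice were all below wild type, and of the treated mice mouse 9 alone overlapped it. Its log2 fold change with PBS was −0.86 (SE 0.10, adjusted p = 4.0e-08). Nadsyn1 (minus strand, chr7:143795584-143822849) encodes NAD synthetase, the last step of the de novo and nicotinate routes. It read 61.9, 59.8, 54.5, 58.9 and 58.8 CPM in wild-type mice 1 to 5, 28.4 to 44.2 CPM (median 33.5) with PBS and 32.4 to 54.9 CPM (median 38.9) with RGLS4326. Its groups were arranged as those of Nampt, with a log2 fold change of −0.74 with PBS (SE 0.10, adjusted p = 1.4e-07). Naprt1 (minus strand, chr15:75890956-75894481, Naprt in the annotation) encodes nicotinate phosphoribosyltransferase. It read 76.3, 64.8, 65.3, 62.1 and 65.0 CPM in wild-type mice 1 to 5, 48.2 to 69.0 CPM (median 56.1) with PBS and 49.7 to 68.8 CPM (median 56.1) with RGLS4326. The ranges overlapped and the fall was small, at −0.20 with PBS (SE 0.08, adjusted p = 0.0211). Without wild-type mouse 1 it was −0.14 and no longer passed (adjusted p = 0.121), nor did its difference between RGLS4326 and wild type (−0.16, adjusted p = 0.0874). Naprt1 shares 277 exonic bases (11.8%) with Eef1d on the same strand.

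Under treatment with RGLS4326, 1 of the 9 members rose relative to PBS, about the share of all tested genes that rose (9.15%). This was Nampt, which rose from 108 ± 15.96 CPM (SD, n = 12) to 126 ± 21.1 CPM (SD, n = 14), a log2 fold change of 0.23 (SE 0.08, adjusted p = 0.0463), and 13 of 14 treated mice were above the PBS mean. The call was not stable. Without mouse 9 the log2 fold change was 0.18 (adjusted p = 0.0809), no other member was called either in edgeR (5 of 9 were at an unadjusted p under 0.05), and over the 31 fits that each left out 1 mouse it passed in 14. It ended without any of PBS-treated mice 2, 3, 5, 6, 9, 10 and 11, treated mice 3, 6, 8, 9, 10 and 13, or wild-type mice 1 to 4, with adjusted p from 0.0504 to 0.0942. The 3 index series are runs of the index numbers in the deposited library names, counted afresh within each group. Whether mice of different groups that share a series number were sequenced together is not known. Within the 3 series the log2 fold change of Nampt was 0.04, 0.40 and 0.21 (edgeR, adjusted p = 0.9998, 0.298 and 0.302). No gene of all those tested was called within any single series, so these p-values carry no information on Nampt.

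Acmsd, Afmid, Kmo and Haao had larger fitted differences than Nampt, with larger standard errors, and did not pass. The log2 fold change of RGLS4326 over PBS was 0.44 for Acmsd (SE 0.17, adjusted p = 0.0712), 0.33 for Afmid (SE 0.13, adjusted p = 0.0748) and 0.33 for Kmo (SE 0.14, adjusted p = 0.0838). It was 0.26 for Haao (SE 0.11, adjusted p = 0.0822) and 0.18 for Nadsyn1 (SE 0.07, adjusted p = 0.0809). At an unadjusted p under 0.05 these 5 and Nampt passed, 6 of 9 members, where 36.8% of all genes did. Without mouse 9 the 5 values were 0.34, 0.25, 0.23, 0.21 and 0.14, with adjusted p from 0.138 to 0.169. Without PBS-treated mouse 1, by contrast, 6 members passed, without treated mouse 2 it was 5, and without PBS-treated mice 4, 7 and 12 it was 4, 3 and 2. The share of all genes called higher moved as well, to 11.5%, 14.5%, 14.5%, 11.3% and 12.4% in these fits, and to 4.66% without treated mouse 9. Qprt (0.11, 95% interval −0.02 to 0.25), Kynu (0.12, −0.23 to 0.46) and Naprt1 (−0.02, −0.13 to 0.09) did not pass at either level. The median over the 9 was 0.23, against −0.0043 over all genes tested. No tested gene separated the PBS-treated from the RGLS4326-treated mice without overlap.

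With RGLS4326, 8 of the 9 members were still lower than in wild type, against 32.4% of all tested genes, and 6 of them with an absolute log2 fold change over 0.5, against 11.3%. This comparison shares its wild-type mice with the one above and its treated mice with the treatment comparison. As a share of the wild-type mean, Kmo stood at 38.8% with PBS and 48.7% with RGLS4326 (45.6% without mouse 9), and Acmsd at 33.0% and 44.6% (41.9%). Afmid stood at 43.8% and 55.0% (52.2%), Haao at 49.4% and 59.3% (57.2%), and Nampt at 55.2% and 64.8% (62.7%). Nadsyn1 stood at 60.0% and 68.1% (66.1%), Qprt at 72.1% and 78.0% (77.6%) and Naprt1 at 87.2% and 86.1% (85.8%). The log2 fold changes of RGLS4326 over wild type ran from −1.16 for Acmsd (SE 0.21, adjusted p = 3.3e-05) to −0.22 for Naprt1 (SE 0.07, adjusted p = 0.0130), and Kynu was at −0.05 (SE 0.24, adjusted p = 0.856). PBS-treated mice lay wholly below wild type for 6 members (21.9% of all genes did) and RGLS4326-treated mice for 3, Kmo, Haao and Qprt (9.75% of all genes). Without mouse 9 the treated mice lay wholly below wild type for 6 members, the further 3 being Afmid, Nampt and Nadsyn1 (17.2% of all genes).

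**Figure D2:**
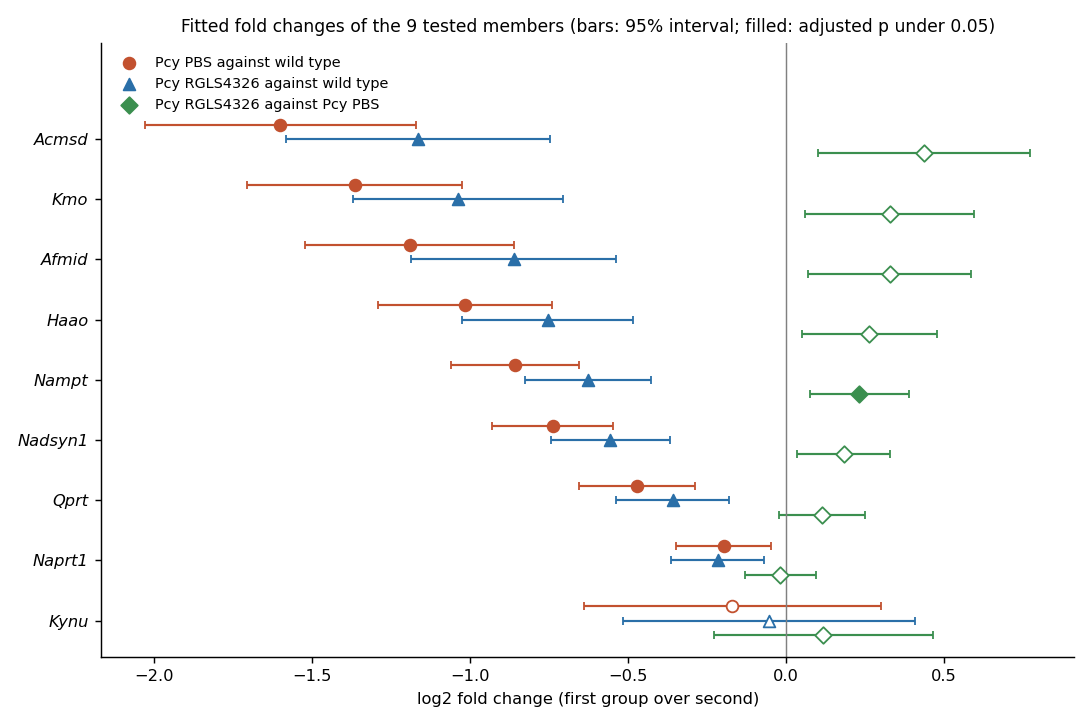
Fitted log2 fold changes of the 9 tested members in the 3 comparisons, with 95% intervals and filled points at an adjusted p under 0.05. Both Pcy groups lie to the left of 0 against wild type for every called member, from −1.60 for Acmsd to −0.20 for Naprt1 with PBS, and Nampt is the single filled point for RGLS4326 against PBS, at 0.23.

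Ratios of members within each mouse, which depend little on library scaling, were compared next. Qprt, which leads towards NAD, was compared with Acmsd, which leads away from it, as log2 of (CPM + 0.5). In wild-type mice 1 to 5 the log2 ratio was −1.12, −0.24, −1.42, −1.41 and −1.15. It ranged from −0.45 to 0.71 with PBS and from −1.04 to 0.31 with RGLS4326. The mean was 1.13 higher with PBS than in wild type, a 2.20-fold higher ratio (exact permutation test over mice, two-sided, p = 0.000485, adjusted p = 0.00436 over 9 ratio comparisons). It was 0.81 higher with RGLS4326 than in wild type (adjusted p = 0.00697, exact permutation test). RGLS4326 against PBS differed by −0.32 (permutation test, p = 0.0424, adjusted p = 0.0636), which did not pass. Without treated mouse 9, which had the lowest ratio of its group, the difference was −0.26. Haao over Acmsd was 0.57 higher with PBS than in wild type (adjusted p = 0.00989, exact permutation test), and 0.40 higher with RGLS4326 (adjusted p = 0.0642, exact permutation test). RGLS4326 against PBS differed by −0.17 (adjusted p = 0.164, permutation test). Without wild-type mouse 2, the mouse low in Acmsd, the difference between RGLS4326 and wild type was 0.60 and passed (adjusted p = 0.00662, exact permutation test), as it did without RGLS4326-treated mouse 7 (0.44, adjusted p = 0.0420, exact permutation test). Nampt over Qprt, salvage over the de novo route, was 0.39 lower with PBS than in wild type, at a mean of 0.54 against 0.93 (adjusted p = 0.00776, exact permutation test), 0.28 lower with RGLS4326 than in wild type (adjusted p = 0.00989, exact permutation test), and 0.10 higher with RGLS4326 than with PBS (adjusted p = 0.164, permutation test).

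**Figure D3:**
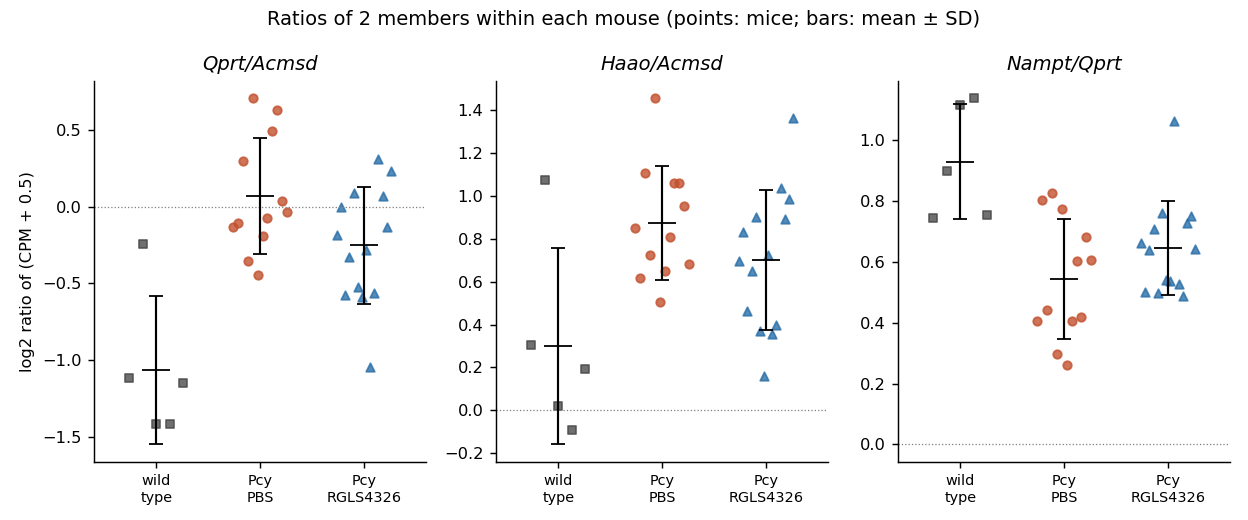
Log2 ratios of (CPM + 0.5) of 2 members within each mouse, by group, with mean ± SD bars. Qprt over Acmsd sits at −1.42 to −0.24 in wild type and at −0.45 to 0.71 with PBS, and the mean of Nampt over Qprt is lower in both Pcy groups (0.54 and 0.65) than in wild type (0.93).

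Levels of different genes were compared as CPM per kilobase of annotated exons. In wild-type kidneys the order was Acmsd (78.5), Afmid (58.0), Haao (56.7), Kmo (47.4), Qprt (38.8), Nampt (38.6), Naprt1 (28.5), Nadsyn1 (17.8), Kynu (0.830) and Ido1 (0.0660). Neighbours among the first 4, and Qprt with Nampt, lay within their SDs of each other, and every other neighbouring pair was farther apart. With PBS the order opened with Haao (28.0), Qprt (28.0), Acmsd (25.9), Afmid (25.4), Naprt1 (24.8), Nampt (21.3) and Kmo (18.4), each within the spread of the next. With RGLS4326 Acmsd (35.0), Haao (33.6) and Afmid (31.9) came first again, with neighbours down to Kmo (23.1) within their spread. Kynu was the lowest of the tested members in all 3 groups, more than an order of magnitude below its neighbour Nadsyn1.

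Most members varied together from mouse to mouse within the Pcy groups. Over 36 pairs of members the median Pearson r of log2 values was 0.767 in the PBS-treated mice and 0.694 in the RGLS4326-treated mice (0.599 without mouse 9). The lowest r was 0.230 with PBS, for Nampt and Naprt1, and −0.04 with RGLS4326, for Acmsd and Naprt1 (−0.19 without mouse 9). These are descriptions over mice that share a library for every gene. Most members also followed the 15 proximal tubule markers. All 15 were lower with PBS than in wild type (median log2 fold change −1.25), where 36.6% of all tested genes fell. Their log2 fold changes ran from −1.86 for Slc13a3 to −0.28 for Aqp1. The marker sum was 32620 to 37250 CPM in wild type, 9465 to 18790 CPM with PBS and 12800 to 32240 CPM with RGLS4326. Without treated mouse 9 the highest sum with RGLS4326 was 22820 CPM. Across the 12 PBS-treated mice, Kmo followed the mean log2 level of these markers with r = 0.985 and rho = 0.944 (permutation test, adjusted p = 6e-05 and 0.000135 over 36 relations), and with r = 0.982 without the 2 mice farthest from the median. Across the 14 RGLS4326-treated mice r was 0.935 and rho 0.930 (permutation test, adjusted p = 6e-05 and 0.00012), and r was 0.877 without mice 9 and 2. In each group 7 of the 9 members passed, all but Naprt1 (r = 0.497 with PBS and 0.456 with RGLS4326) and Kynu (r = 0.425 and 0.299). Of all tested genes 25.3% with PBS and 25.4% with RGLS4326 had an absolute r at least as large as the weakest of these 7. With Lcn2 the relation was inverse and 6 and 7 members passed, where 17.9% and 51.5% of all genes reached the absolute r of the weakest passing member. For Kmo r was −0.890 and rho −0.895 with PBS (permutation test, adjusted p = 0.00028 and 0.00042) and r was −0.924 and rho −0.899 with RGLS4326 (permutation test, adjusted p = 6e-05 and 0.000135), and without the 2 farthest mice r was −0.825 and −0.849. Each index series held only 4 or 5 mice of a Pcy group, so the relations were recomputed with the series means removed, permuting within series. The same numbers of members passed with the tubule markers, 7 of 9 in each group, and r for Kmo was 0.988 with PBS and 0.924 with RGLS4326 (permutation test, adjusted p = 0.000672 and 0.00012). With Lcn2 6 of 9 passed in each group, and r for Kmo was −0.928 and −0.953 (permutation test, adjusted p = 0.00316 and 0.00012).

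Levels relative to the summed markers differed in pattern between members and are given as a description. The RGLS4326 means include mouse 9. The sum is weighted to abundant markers such as Slc34a1 and Slc27a2, at means of 7596 and 6224 CPM in wild type. Per 1000 CPM of markers, wild-type mice had 6.59 ± 0.354 CPM of Kmo (SD, n = 5), PBS-treated mice 6.07 ± 0.319 (SD, n = 12) and RGLS4326-treated mice 5.86 ± 0.418 (SD, n = 14). In the same order of groups Afmid stood at 6.04, 6.31 and 6.09, and Acmsd at 6.61, 5.09 and 5.33. Nampt was 5.75, 7.81 and 6.94 and Qprt 3.02, 5.36 and 4.47 on the same scale, with higher means in the Pcy groups. Naprt1 was 1.97, 4.29 and 3.23, Haao 7.82, 9.32 and 8.59, Nadsyn1 1.73, 2.55 and 2.21, and Kynu 0.151, 0.325 and 0.273, also with higher means in both Pcy groups. The part of tubule marker content in the members' differences was not tested. Other markers moved between the groups too. With PBS, 7 of 7 macrophage, 3 of 3 T cell, 4 of 5 fibroblast, 3 of 3 collecting duct and 2 of 2 tubule injury markers rose, 1 of 2 thick ascending limb markers fell, and 0 of 3 podocyte, 0 of 2 adipocyte and 0 of 1 tested adrenal markers passed. Of all tested genes 37.7% rose and 36.6% fell in this comparison. With RGLS4326 against PBS, 6 of 15 proximal tubule markers rose, against 9.15% of all tested genes. Without mouse 9 it was 1 of 15, against 4.66%. At an unadjusted p under 0.05, 13 of 15 passed in both fits, with a median log2 fold change of 0.40 with and 0.33 without mouse 9. All 3 of 3 collecting duct markers fell, with and without mouse 9, where 6.66% of all tested genes fell in the fit of all mice.

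**Figure D4:**
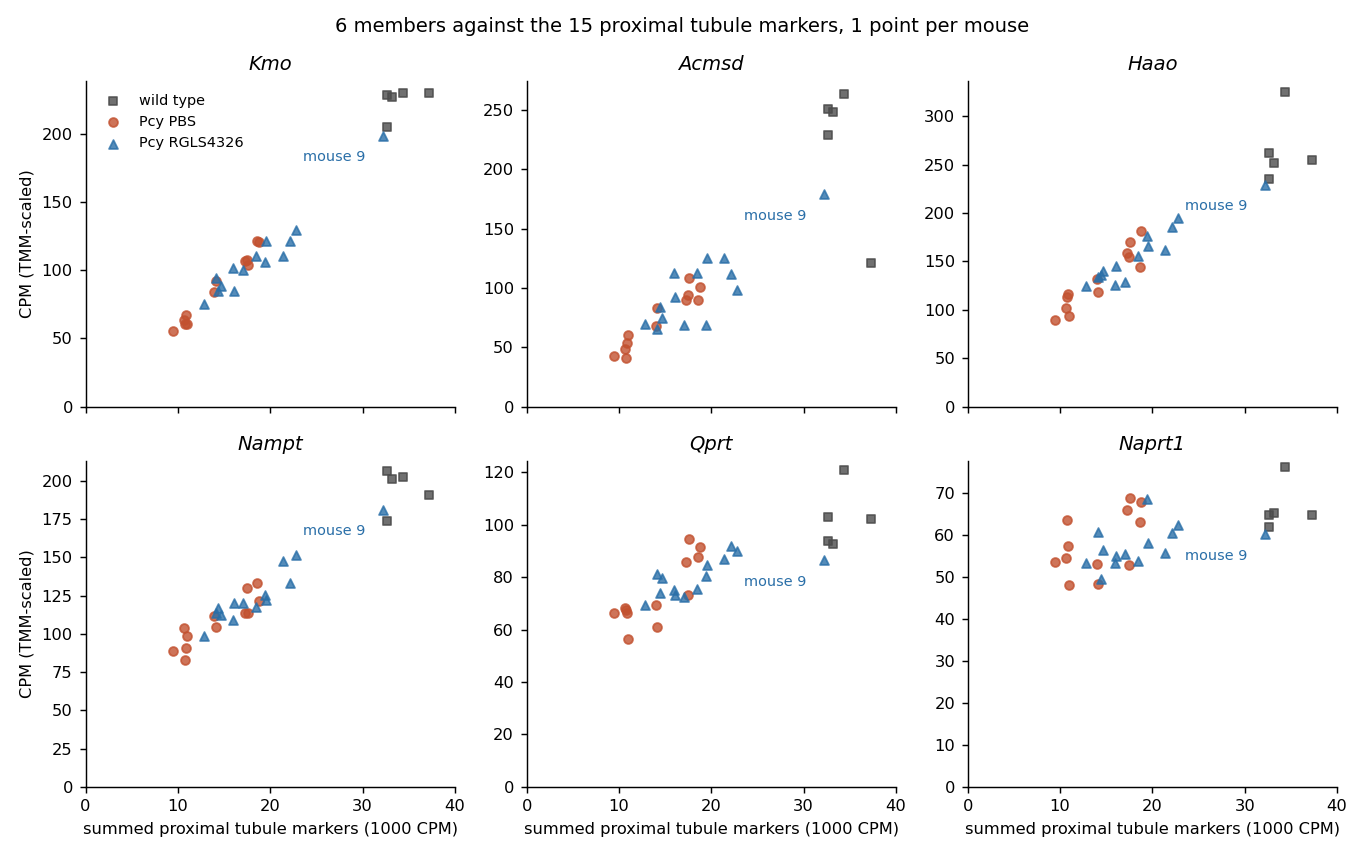
CPM of 6 members (linear axes from 0) against the summed CPM of 15 proximal tubule markers, 1 point per mouse. Kmo, Haao and Nampt climb from the PBS-treated mice (marker sum 9465 to 18790 CPM) to wild type, RGLS4326-treated mouse 9 lies beside the wild-type mice, and Naprt1 is nearly level.

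Liver, the other main site of this route, was represented by 8 hepatocyte markers. They summed to 25.6 to 278 CPM in wild type, 8.98 to 84.8 CPM with PBS and 10.2 to 514 CPM with RGLS4326. The highest values were those of wild-type mouse 5 and treated mouse 9, and without these the highest were 67.7 and 163.5 CPM. Of the 8 markers, 4 fell with PBS against wild type and 4 rose with RGLS4326 against PBS. Of all tested genes 36.6% fell in the former comparison and 9.15% rose in the latter. Without wild-type mouse 5 none of the falls passed in edgeR (1 of 8 at an unadjusted p under 0.05), and without treated mouse 9 none of the rises did (1 of 8 at an unadjusted p under 0.05). Albumin itself read 17.2 to 178 CPM, 6.25 to 49.1 CPM and 6.05 to 329.6 CPM in these groups. Tdo2, the liver enzyme that opens the tryptophan ring, was at 0 to 2.59 CPM, 0 to 0.598 CPM and 0 to 7.004 CPM, and did not pass with PBS (−1.79, adjusted p = 0.107) or with RGLS4326 (2.01, adjusted p = 0.0625). The part of liver RNA in the members' values was not tested.

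The gene with the most similar pattern to Nampt, the member with the smallest p with PBS against wild type, was Ak4, an adenylate kinase (Pearson r = 0.979 of log2 values across the 31 mice, whose group means differ). Galnt11 (r = 0.978), Lrpprc (0.976), Slc25a13 (0.976) and Mgam (0.975) came next. Kmo (0.960) and Nadsyn1 (0.955) were the nearest members. With group means removed r was 0.947 for Ak4, 0.936 for Galnt11, 0.922 for Lrpprc, 0.929 for Slc25a13, 0.925 for Mgam, 0.877 for Kmo and 0.865 for Nadsyn1.

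Of 52 other genes of NAD and tryptophan metabolism, 50 were tested, and Tph1 and Nmrk2 were too low. With PBS against wild type 33 fell, 9 rose and 8 did not pass, where 36.6% of all tested genes fell and 37.7% rose. The median log2 fold change was −0.50. Genes named here beyond the 3 largest rises and falls were chosen after their values were seen. Of 9 tested genes at the entry and side branches of tryptophan breakdown 7 fell, among them the kynurenine aminotransferase Aadat, which fell by 1.06, and Ido2, which fell by 1.38. Of 9 genes after the mononucleotide and of riboside salvage 7 fell, of 8 carriers 6 fell and 1, Slc7a5, rose, and all 4 regulators fell. The NAD consumers and nicotinamide disposal genes divided, with 8 higher and 9 lower of 20. The 3 largest rises were in that list: Nnmt, which methylates nicotinamide for excretion, at 3.41 (0.214 to 2.34 CPM, adjusted p = 4.0e-09), the ADP-ribosyltransferase Parp14 at 1.42 (16.5 to 44.1 CPM, adjusted p = 5.8e-08), and Aox1, an aldehyde oxidase, at 0.84 (1.16 to 2.07 CPM, adjusted p = 0.00579). The 3 largest falls were Aox3 at −2.14 (2.07 to 0.476 CPM, adjusted p = 0.00188), the neutral amino acid carrier Slc6a19 at −1.76 (326 to 96.5 CPM, adjusted p = 1.6e-06) and the nuclear receptor Ppara at −1.503 (208 to 73.4 CPM, adjusted p = 4.7e-08). Aox3 was low and its groups overlapped, at 0.473 to 4.998 CPM in wild type and 0.127 to 1.30 CPM with PBS.

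With RGLS4326 against PBS, 10 of the 50 rose and none fell, where 9.15% and 6.66% of all tested genes did. None passed with an absolute log2 fold change over 0.5. The count was 17 by DESeq2, where 12.4% of all tested genes were called higher, and 6 without mouse 9 (4.66%). It was between 3 and 22 over the fits that left out 1 mouse. It was lowest without PBS-treated mice 5, 9 or 10 (3.01%, 3.19% and 2.43% of all genes) and highest without PBS-treated mouse 4 (14.5%). The 10 are named after their values were seen. They were the kynurenine aminotransferases Ccbl1 (0.32, adjusted p = 0.0191) and Ccbl2 (0.40, adjusted p = 0.0120), the adenylyltransferase Nmnat1 (0.20, adjusted p = 0.0392), the NAD kinase Nadk (0.14, adjusted p = 0.0486) and the ectonucleotidase Nt5e (0.29, adjusted p = 0.0407). The others were the deacetylase Sirt1 (0.26, adjusted p = 0.0294), Parp3 (0.10, adjusted p = 0.0274), the monocarboxylate and nicotinate carrier Slc5a8 (0.44, adjusted p = 0.0486), and the regulators Hnf4a (0.35, adjusted p = 0.0213) and Esrra (0.23, adjusted p = 0.0314). With RGLS4326 against wild type 28 of the 50 were lower, 8 higher and 14 did not pass. Of all tested genes 32.4% were lower and 32.5% higher in that comparison.

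**Figure D5:**
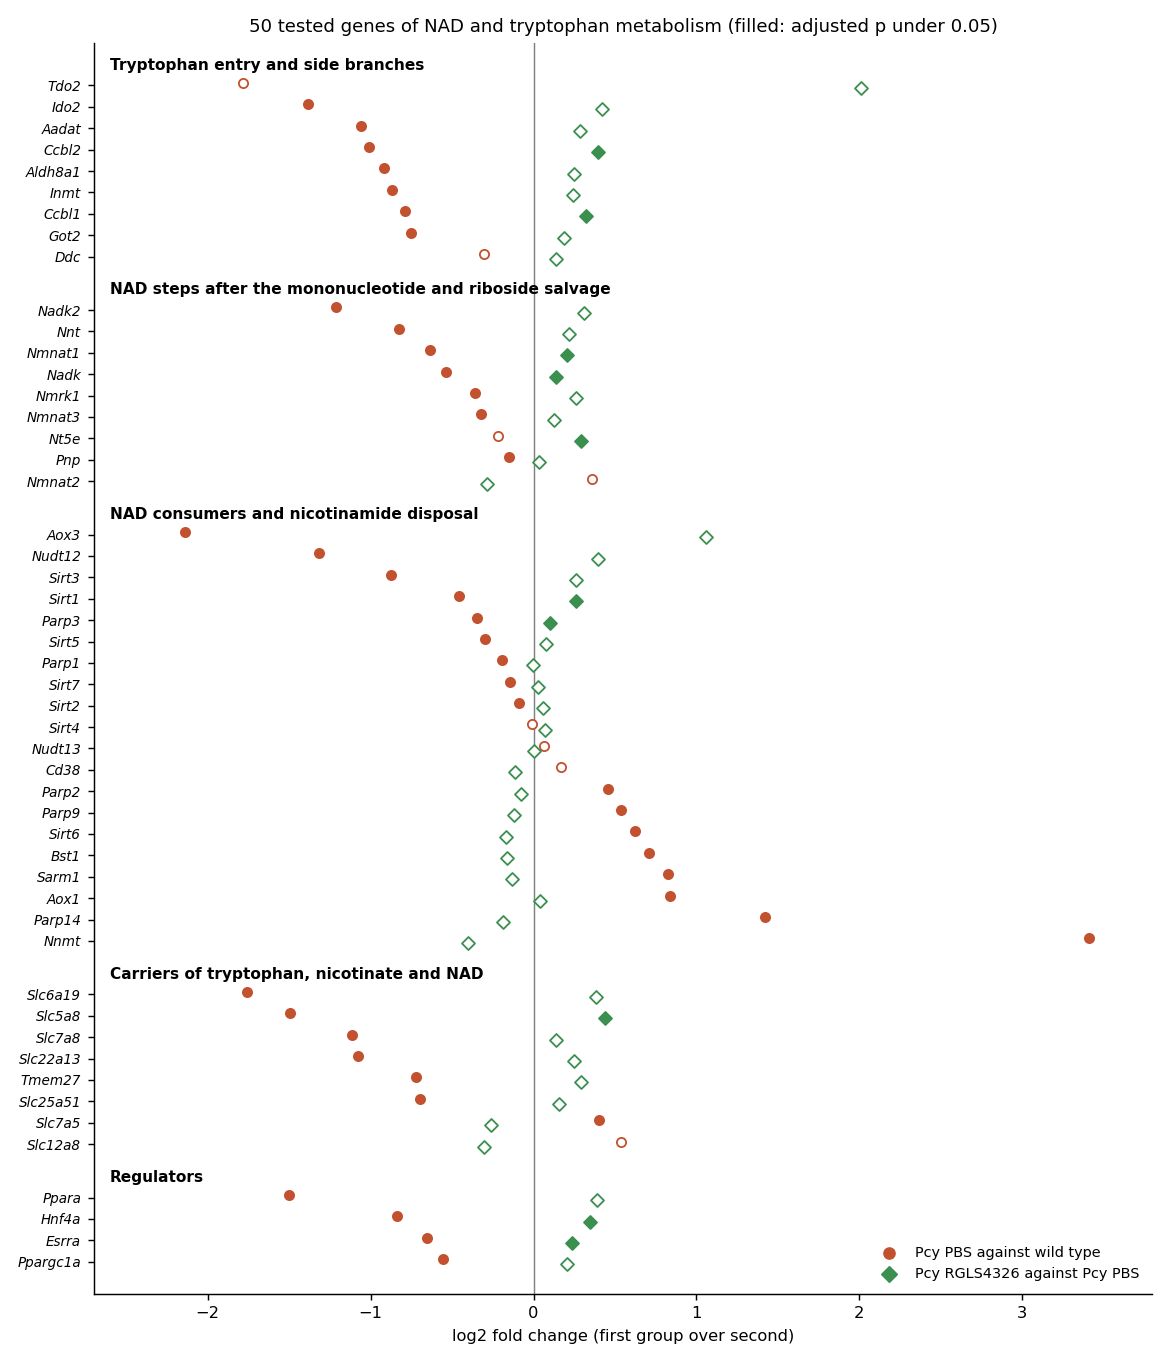
Log2 fold changes of 50 tested genes in 5 lists, with PBS against wild type (circles) and RGLS4326 against PBS (diamonds), filled at an adjusted p under 0.05. Circles lie mostly left of 0, with Nnmt at 3.41 the far exception, and the 10 filled diamonds all lie right of 0.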

How the data were processed

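Kidney mRNA of 12 PBS-treated Pcy/CD1, 14 RGLS4326-treated Pcy/CD1 and 5 wild-type CD1 mice was measured by RNA-seq with stranded libraries. The authors deposited raw counts per gene for each mouse, without normalization. Per their methods, reads were trimmed, mapped with STAR to GRCm38 and counted in genes with HTSeq if uniquely mapped. The submitters' processing notes also list FastQC 0.11.2, Trim Galore, SAMtools 1.1, HTSeq 0.6.1 and Picard 1.119. The annotation release and the strand setting of counting are not given in the sources used here. HTSeq rows that name no gene were left out: 8.39% to 10.1% of reads had no feature, 0.305% to 0.411% were ambiguous and 17.8% to 21.2% were not unique.

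Groups and replicate numbers came from the labels, and replicates are separate mice. Genes passing filterByExpr were fitted in edgeR 4.0.16 (R 4.3.3) with TMM scaling and a quasi-likelihood model of all 31 mice, with 1 coefficient per group and Benjamini-Hochberg adjustment over 15185 genes. A gene was called at an adjusted p under 0.05. Standard errors are the log2 fold change over the square root of F, which is approximate, and 95% intervals assume a normal spread. Ratios used log2(CPM + 0.5) and were tested by permuting mice, exactly where a group had under 10 and otherwise with 100000 resamples, as were correlations within a group. With 100000 resamples the smallest p a correlation can have is 1e-05. The test was run on simulated counts beforehand. Positions are from the GENCODE annotation of GRCm38 and exonic lengths from its merged exons. Permutations ran in numpy 2.4.6, tables in pandas 2.3.3 and plots in matplotlib 3.10.9 (Python 3.11.15). Members and lists were chosen with earlier results of these data known. All members are named. The rule for naming genes of the wider list took those called under treatment with an absolute log2 fold change over 0.5 (there were none) and the 3 largest rises and falls called with PBS against wild type. The other wider genes named, which include the 10 called under treatment at any size and Aadat, Ido2, Slc7a5 and Tdo2, were chosen after their values were seen. Alternatives covered scaling, DESeq2 1.42.0, filters, index series, replicate block, mice in the fit and leaving out each mouse. Marker calls without treated mouse 9 or wild-type mouse 5, correlations with index series means removed, and groups wholly below wild type without treated mouse 9 were added after seeing the data. Reads give 14892524 to 27459962 counts per mouse, and genes with few reads, such as Kynu, are measured least precisely. The sequence of a further promoter is not reported here.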

Additional observations from a re-analysis of the deposited data

Results flagged for a closer look

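Of the 10 members, 3 had 1 wild-type mouse far from the other 4, by the gap to its nearest neighbour relative to the range of the group. Kmo read 204.8 CPM in wild-type mouse 5, with the next at 226.5 CPM. Acmsd read 120.9 CPM in wild-type mouse 2, with the next at 228.7 CPM. Naprt1 read 76.32 CPM in wild-type mouse 1, with the next at 65.31 CPM. Chance flags about 1 in 20 groups. The Pcy groups hold more mice than this check covers.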

How the results depend on the processing

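The count of members that fell with PBS against wild type was 8 and stayed between 6 and 8 under 10 alternatives and at 7 or 8 over the 31 fits leaving out 1 mouse, and the count with RGLS4326 against wild type, also 8, was 7 or 8 over those fits but 0 in index series 2 alone, where 5 treated and 2 wild-type mice were left and 61 of all tested genes were called in either direction. The log2 fold changes there were −1.03 for Acmsd (−1.16 over all mice), −0.86 for Kmo (−1.04), −0.78 for Afmid (−0.86), −0.56 for Nampt (−0.63), −0.51 for Haao (−0.75), −0.40 for Nadsyn1 (−0.56), −0.13 for Qprt (−0.36) and −0.13 for Naprt1 (−0.22). The count of 1 member called with RGLS4326 against PBS became 0 with the absolute log2 fold change over 0.5, where 0.935% of all genes were called higher. The count was also 0 without the filter on low counts (5.11% of all genes), with the index series as covariate (8.32%) and with only the 2 groups compared (5.25%). In each of index series 1, 2 and 3 alone it was 0, where no gene at all was called. Over the 31 fits leaving out 1 mouse it was 0 to 6. The cause was not tested. Replicate numbers do not pair the mice: deviations of mice that share a number in the PBS and RGLS4326 groups correlated at a mean of −0.06 over 12 pairs, of which 4 were over 0.1. With the number as a replicate block, 0 members were called under treatment (Nampt 0.20, adjusted p = 0.0919 in edgeR). Only 1.32% of all tested genes were called higher in that fit. Signs turned for values that had not passed: with PBS against wild type for Kynu in index series 2 (0.10), with RGLS4326 against PBS for Kmo (−0.0019) and Nadsyn1 (−0.0511) in series 1, and Kynu (−0.10) and Naprt1 (0.13) in series 3, and Naprt1 ranged from −0.0404 to 0.0064 over the fits leaving out 1 mouse. With RGLS4326 against wild type Kynu was 0.0016 in series 1, 0.22 in series 2 and −0.17 to 0.0889 over those fits. Index series are numbered within each group, so permuting within them need not match batches across groups. With that permutation, Qprt over Acmsd with RGLS4326 against PBS (−0.32, adjusted p = 0.0386) and Haao over Acmsd with RGLS4326 against wild type (0.42, adjusted p = 0.0396) passed. Over fits leaving out 1 mouse these ranged from −0.37 to −0.26, passing in 5 of 26 (without PBS-treated mice 4 or 6, or treated mice 5, 11 or 14), and from 0.31 to 0.60, passing in 2 of 19. Naprt1 lost its call with PBS against wild type with a mean of at least 1 CPM (−0.16) or only the 2 groups compared (−0.17), in index series 1, where the fall was larger (−0.32, adjusted p = 0.113), and in index series 2, where it was −0.0365, and Qprt lost its call in index series 2 alone (−0.27, adjusted p = 0.232, against −0.47). The members wholly below wild type with RGLS4326 went from 3 to 6 without treated mouse 9. Of the alternatives chosen after seeing the data, removing index series means turned r of Kynu with Lcn2 under RGLS4326 (0.0328) and ended the call of Qprt with Lcn2 (−0.44, adjusted p = 0.26). Among the wider genes the treatment count of 10 was 1 with the replicate block, where 1.32% of all tested genes were called higher. It was 6 without the filter (5.11%) or with only the 2 groups compared (5.25%), and 0 in each index series alone, where no gene was called. Depth limits Ido1 and Kynu, at 0 to 8 and 39 to 165 reads per mouse.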
